A study of Homo sapiens with 3 samples.

Results

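Securin, its binding partner, separase and the cohesin complex were followed as 10 genes in HGC-27 cells, an established human line from an undifferentiated gastric carcinoma. They are PTTG1, PTTG1IP, ESPL1, RAD21, SMC1A, SMC3, STAG1, STAG2, NIPBL and PDS5A, taken by gene symbol from an expression table of 50868 genes. The set was chosen by its measured values, the FPKM of PTTG1IP being low with YAP siRNA only, so the PTTG1IP difference is a description and supports nothing. All 3 cultures were HGC-27 at passage 6, harvested 48 h after transfection. They received YAP siRNA, against the coactivator restrained by the Hippo pathway; IRF3 siRNA, against a transcription factor of the interferon response; or control siRNA. Each group is 1 library, so no difference has a replicate check, no test across samples exists and no p-value is given. In bulk RNA, fewer cells of a kind (for example in mitosis) and less RNA per cell cannot be told apart.

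Cohesin is a ring of SMC1A, SMC3 and the kleisin RAD21, with STAG1 or STAG2 bound to it, that holds sister chromatids together from S phase to mitosis. NIPBL loads the ring on DNA, and PDS5 proteins bound to it help to keep or release it. At anaphase the protease separase, encoded by ESPL1, cuts RAD21. Until then separase is held inactive by securin, encoded by PTTG1, which the anaphase-promoting complex marks for destruction. PTTG1IP, also called PBF, is a membrane-associated protein that binds securin and helps it to enter the nucleus.

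Totals of counts assigned to genes were 14385959 in the YAP siRNA library, 14941556 in the IRF3 siRNA library and 13949401 in the control library. YAP1 itself had 337 counts with YAP siRNA, 561 with IRF3 siRNA and 861 in control, and its count ratio to control was 0.380 with YAP siRNA (95% counting interval 0.334 to 0.431). YAP1 was also below control with IRF3 siRNA, at 0.608 (0.546 to 0.677). Its ratio of YAP siRNA to IRF3 siRNA was 0.624 (0.543 to 0.715). IRF3 had 597 counts with its own siRNA, 764 with YAP siRNA and 681 in control, a count ratio of only 0.818 (0.732 to 0.915) there, so it checks that label weakly. None of 5 epithelial markers averaged 1 FPKM (fragments scaled by gene length and library total), and their summed level was 0.541 FPKM with YAP siRNA, 0.516 with IRF3 siRNA and 0.643 in control. Of 3 mesenchymal markers 2 averaged at least 1 FPKM, and CDH2 did not. The filament gene VIM stood at 469, 451 and 511 FPKM in the same order, and FN1 at 7.14, 6.16 and 9.33. Of the other cell types, 5 leukocyte markers summed to 0.959, 1.70 and 0.943 FPKM, 4 endothelial markers to 0.225, 0.196 and 0.199, and 3 red cell markers to 7.36, 8.79 and 7.75. The part of these other transcripts in the results was not tested.

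The securin arm held the most abundant member and the one with the lowest ratio. PTTG1IP (ENSG00000183255, chromosome 21, 44849585 to 44873903, minus strand, hg38) had 9.36 FPKM with YAP siRNA, 34.9 with IRF3 siRNA and 35.6 in control, from 907, 3510 and 3347 counts. It was low in the YAP siRNA library, while the IRF3 siRNA and control libraries lay close together. On the scale of log2(FPKM + 1), used for all log2 ratios here unless a count ratio is named, its ratio was -1.82 for YAP siRNA against control, -0.03 for IRF3 siRNA against control and -1.79 for YAP siRNA against IRF3 siRNA. Its count ratio, scaled by library totals, was 0.263 (0.244 to 0.283) for YAP siRNA against control and 0.979 (0.934 to 1.03) for IRF3 siRNA against control. Among the 11103 genes averaging at least 1 FPKM it ranked 6 from the lowest against control with YAP siRNA, and 5510 with IRF3 siRNA. The sign of the IRF3 siRNA value turned on TMM-scaled CPM (counts scaled by library total and an edgeR factor), where it was 0.07.

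PTTG1 (ENSG00000164611, chromosome 5, 160421822 to 160428744, plus strand) was the most abundant member in every library per unit of length. It had 66.9 FPKM with YAP siRNA, 66.0 with IRF3 siRNA and 56.7 in control, from 3284, 3365 and 2698 counts. Both knockdown libraries were higher than control by less than 2-fold, with count ratios of 1.18 (1.12 to 1.24) and 1.16 (1.11 to 1.23), and the ratio between them was 1.01 (0.966 to 1.06). After removal of the trend in GC content, exon length and level over all genes, the PTTG1 count ratios were 0.991 with YAP siRNA and 0.983 with IRF3 siRNA. The same removal on the log2(FPKM + 1) scale left PTTG1 above control, at 0.11 in both comparisons. The side on which it lay thus changed only for the count ratio. Reads of PTTG1 may be shared with near-identical copies: PTTG3P held 8, 10 and 14 counts in the YAP siRNA, IRF3 siRNA and control libraries, and PTTG2 held 0, 1 and 1. The FPKM of PTTG1 over that of PTTG1IP was 7.14 in the YAP siRNA library, 1.89 in the IRF3 siRNA library and 1.59 in control.

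ESPL1 (ENSG00000135476, chromosome 12, 53268299 to 53293643, plus strand) had 9.45 FPKM with YAP siRNA, 11.1 with IRF3 siRNA and 10.002 in control, from 1802, 2199 and 1849 counts. Its log2 ratio to control was -0.07 with YAP siRNA and 0.14 with IRF3 siRNA, and the count interval of the first, 0.885 to 1.01, included 1. On TMM-scaled CPM the YAP siRNA value was 0.0079. Between the knockdowns the count ratio was 0.851 (0.799 to 0.906), lower with YAP siRNA.

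**Figure D1:**
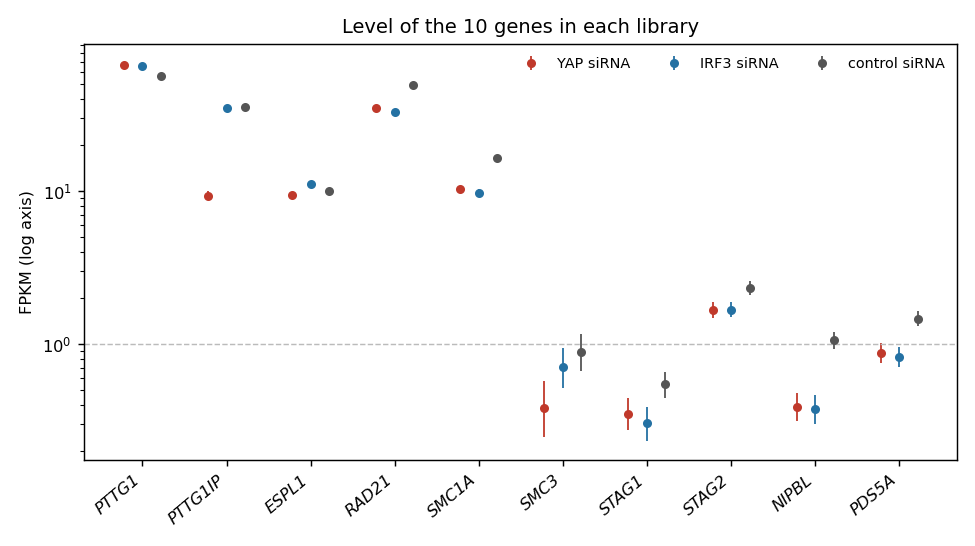
FPKM of the 10 genes in each library on a log axis. Points are single libraries, bars the 95% counting interval, and the dashed line 1 FPKM. PTTG1IP lies at 9.36 with YAP siRNA, against 34.9 with IRF3 siRNA and 35.6 in control; the 7 cohesin genes lie below control in both knockdown libraries.

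The plot of levels by library shows a second pattern, shared by the knockdowns: the FPKM of all 7 cohesin genes was below control with YAP siRNA and with IRF3 siRNA. Both comparisons share the control library, so a control library that was itself high for these genes cannot be told apart from a change in both knockdowns. RAD21 (ENSG00000164754, chromosome 8, 116845935 to 116874866, minus strand), the subunit that separase cuts, had 35.1 FPKM with YAP siRNA, 32.8 with IRF3 siRNA and 49.7 in control, from 5006, 4856 and 6876 counts. Its count ratio to control was 0.706 (0.681 to 0.732) with YAP siRNA and 0.659 (0.635 to 0.684) with IRF3 siRNA. SMC1A (ENSG00000072501, chromosome X, 53374149 to 53422728, minus strand), an ATPase arm of the ring, had 10.3, 9.79 and 16.5 FPKM in the YAP siRNA, IRF3 siRNA and control libraries, from 1667, 1642 and 2582 counts. The SMC1A count ratios were 0.626 (0.588 to 0.666) and 0.594 (0.558 to 0.632). For both genes the knockdown libraries lay near each other and apart from control.

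SMC3 (ENSG00000108055, chromosome 10, 110567691 to 110604636, plus strand), the other ATPase arm, was counted far less often than its partner. It had 24 counts with YAP siRNA, 46 with IRF3 siRNA and 54 in control, or 0.383, 0.706 and 0.888 FPKM. Its count ratio to control was 0.431 (0.255 to 0.709) with YAP siRNA and 0.795 (0.525 to 1.2008) with IRF3 siRNA, so at this depth no difference from control was detectable with IRF3 siRNA. Between the knockdowns the SMC3 ratio was 0.542 (0.316 to 0.906). The FPKM of SMC1A was 27.0 times that of SMC3 with YAP siRNA, 13.9 times with IRF3 siRNA and 18.6 times in control.

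Of the paired STAG subunits, STAG2 (ENSG00000101972, chromosome X, 123960212 to 124422664, plus strand) had 1.67 FPKM with YAP siRNA, 1.68 with IRF3 siRNA and 2.32 in control, from 272, 284 and 366 counts. STAG1 (ENSG00000118007, chromosome 3, 136336233 to 136752403, minus strand) had 0.350, 0.303 and 0.544 FPKM in the same order, from 69, 62 and 104 counts. The count ratios of STAG2 were 0.721 (0.614 to 0.845) with YAP siRNA and 0.724 (0.618 to 0.848) with IRF3 siRNA, and those of STAG1 were 0.643 (0.468 to 0.881) and 0.557 (0.400 to 0.770). The FPKM of STAG2 over that of STAG1 was 4.78 with YAP siRNA, 5.55 with IRF3 siRNA and 4.26 in control, so STAG2 was the higher of the pair in each library.

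The loader NIPBL (ENSG00000164190, chromosome 5, 36876759 to 37066413, plus strand) had the lowest uncorrected count ratios among the cohesin genes. It had 88 counts with YAP siRNA, 88 with IRF3 siRNA and 233 in control, or 0.388, 0.373 and 1.06 FPKM. Its count ratios were 0.366 (0.283 to 0.470) and 0.353 (0.273 to 0.452), although on the log2(FPKM + 1) scale, which understates the change of low genes, they were -0.57 and -0.58, and those of SMC1A were lower, at -0.63 and -0.70. PDS5A (ENSG00000121892, chromosome 4, 39822863 to 39977956, minus strand) had 0.877 FPKM with YAP siRNA, 0.825 with IRF3 siRNA and 1.47 in control, from 180, 176 and 292 counts. The PDS5A count ratios were 0.598 (0.494 to 0.722) and 0.563 (0.464 to 0.681).

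Of the 10 members, 7 averaged at least 1 FPKM over the 3 libraries. PDS5A at 1.06 and STAG2 at 1.89 FPKM were nearest inside this filter, and SMC3 at 0.659, NIPBL at 0.607 and STAG1 at 0.399 FPKM were outside it. PDS5A passed only through the control library (1.47 FPKM), so among filtered genes its ratios below control are partly fixed by the filter. Among the 7, 1 member, PTTG1IP, was at least 2-fold lower with YAP siRNA than in control, where 0.468% of the 11103 genes were called lower; this contrast chose the gene. With IRF3 siRNA against control 0 of 7 were lower, against 0.612% of genes. With YAP siRNA against IRF3 siRNA 1 of 7, again PTTG1IP, was lower, against 0.297% of genes. The choice of PTTG1IP as low with YAP siRNA only fixed this contrast as well. Lower by 2-fold with YAP siRNA against both other libraries were 13 genes (0.117%), PTTG1IP included. No member rose 2-fold in any of these 3 comparisons, in which 0.351%, 0.387% and 0.315% of genes did.

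Count ratios without a pseudocount, for the 16688 genes with at least 20 counts over the libraries, cover all 10 members. With YAP siRNA 3 of 10 (PTTG1IP, SMC3 and NIPBL) had a count ratio of at most 0.5 to control, against 7.45% of genes. With IRF3 siRNA 1 of 10 (NIPBL) did, against 8.26%, and between the knockdowns 1 of 10 (PTTG1IP) did, against 2.43%. The counting interval lay wholly below 1 for 8 of 10 members with YAP siRNA, against 29.5% of genes, and for 6 of 10 with IRF3 siRNA, against 31.8%. An interval narrows with depth, and the members held from 124 (SMC3) to 16738 (RAD21) counts over the libraries. The shares over all genes were not matched for depth. PTTG1IP is among the members named with YAP siRNA, and between the knockdowns, by the way it was chosen, so its part there supports nothing. The 7 cohesin genes had a median count ratio of 0.626 (range 0.366 to 0.721) with YAP siRNA and 0.594 (0.353 to 0.795) with IRF3 siRNA, beside 0.940 and 0.934 over all genes. Ratios below 1 were held by 7 of 7 cohesin genes in each comparison, against 58.6% of genes with YAP siRNA and 59.4% with IRF3 siRNA. With overlapping genes summed, the sum of STAG1 and PCCB, a gene on the other strand, had a log2 ratio of 0.10 with IRF3 siRNA. PCCB held 1999 counts in that library, far more than STAG1, so the sum mostly reflects PCCB. STAG1 alone had a count ratio of 0.557 (0.400 to 0.770) there. Directly between the knockdowns the cohesin median was 1.05 (0.542 to 1.16), beside 1.01 over all genes, and 2 of 7 were below 1, against 47.2% of genes.

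Exon length and base composition moved with these ratios. Over all genes the median count ratio to control in the decile with the longest exon total, which holds SMC1A, NIPBL and PDS5A, was 0.731 with YAP siRNA and 0.700 with IRF3 siRNA, beside 1.08 and 1.07 in the shortest decile. In the second lowest decile of GC content, which holds RAD21, SMC3, STAG1, NIPBL and PDS5A, the medians were 0.810 and 0.755. Once the trend in GC content, length and level was removed, the 7 cohesin genes had a median count ratio of 0.743 (0.515 to 0.887) with YAP siRNA and 0.765 (0.517 to 0.986) with IRF3 siRNA. Over all genes the medians were then 0.945 and 0.937. NIPBL then stood at 0.517 in both comparisons, RAD21 at 0.743 and 0.717, and SMC3 at 0.515 and 0.986. The SMC3 and NIPBL values thus no longer reached 0.5, which left 1 of 10 members (PTTG1IP) with YAP siRNA and 0 with IRF3 siRNA at or below it. Of 16611 genes, 647 with YAP siRNA and 674 with IRF3 siRNA lay there, and PTTG1IP was chosen by its low value. PTTG1IP went to 0.228 with YAP siRNA and 0.840 with IRF3 siRNA. The plot of count ratios sets the values with and without this trend side by side.

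**Figure D2:**
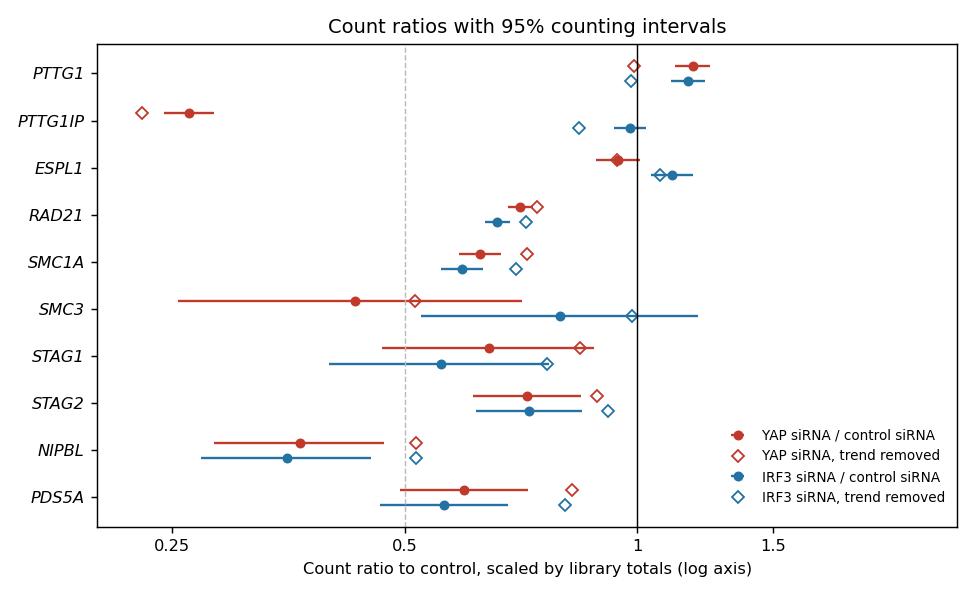
Count ratio to control of each gene, scaled by library totals, on a log axis. Filled points have 95% counting intervals as bars, open diamonds have the trend in GC content, length and level removed, and the dashed line marks 0.5. PTTG1IP stands at 0.263 with YAP siRNA and 0.979 with IRF3 siRNA, and each cohesin gene lies left of 1 in both comparisons.

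Against all expressed genes, PTTG1IP lay at the side of the scatter and the cohesin genes along its length. The scatter of log2 ratios places PTTG1IP at -1.82 and -0.03, RAD21 at -0.49 and -0.59, SMC1A at -0.63 and -0.70, STAG2 at -0.31 and -0.31, and PDS5A at -0.39 and -0.43 (YAP siRNA first). Its axes share the control library, so the slope of the scatter is not a result.

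**Figure D3:**
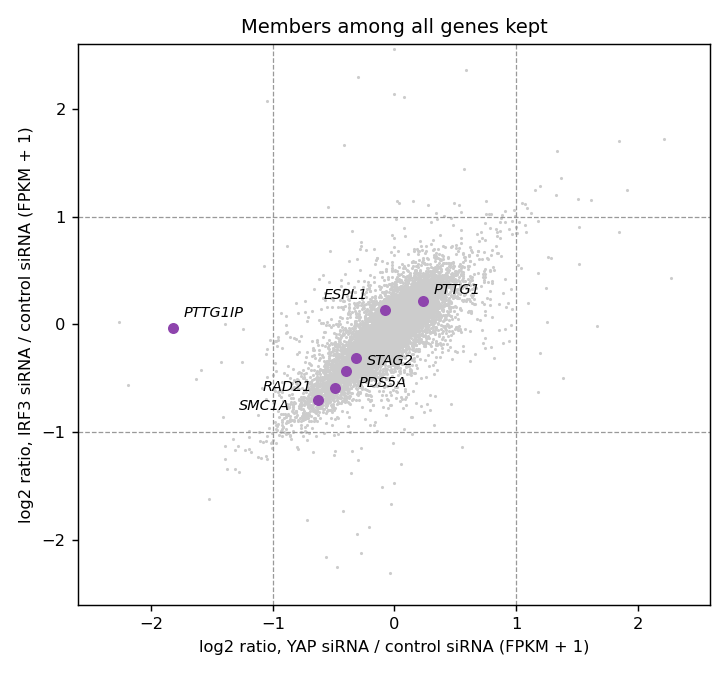
Log2 ratio of FPKM + 1 to control with YAP siRNA (x axis) and IRF3 siRNA (y axis); grey points are 11095 of the 11103 genes averaging at least 1 FPKM, the rest lying outside the axes, and dashed lines mark 2-fold. The 7 members that pass the filter are labelled; PTTG1IP lies past 2-fold on the x axis and at -0.03 on the y axis.

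The level of a gene in FPKM depends on the length it was divided by. For 9 of the 10 members, NIPBL being the exception, the length implied by the deposited FPKM and counts was within 1% of the sum of all distinct annotated exons, with overlapping exons counted in full. Over merged exons each member is shorter, and the implied length was 1.90 times the merged one for PTTG1IP and 1.02 times for SMC3, the extremes among the members. In counts scaled by library total and merged exon length (per kilobase), PTTG1IP had 17.8 with YAP siRNA, 66.4 with IRF3 siRNA and 67.8 in control, and SMC3 had 0.390, 0.720 and 0.906. On this scale PTTG1IP stood above ESPL1 (14.1) and SMC1A (11.1) in the YAP siRNA library, whereas in FPKM it stood at 9.36 below their 9.45 and 10.3. In FPKM the counting intervals of PTTG1IP and ESPL1 overlapped there, and so did those of NIPBL, SMC3 and STAG1. Ratios of 1 gene between libraries do not depend on the length.

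Promoter sequence is shown for the members at the ends of these patterns, as the 250 bases before the start of transcription in RefSeq, build GRCh38.p14: PTTG1IP for its difference between the knockdowns, NIPBL for the lowest uncorrected count ratios among the cohesin genes, and PTTG1 and ESPL1 for securin and separase. Capitals mark matches, on either strand, to the TEAD motif GGAATG (YAP acts through TEAD proteins), the cell cycle CHR motif TTTGAA or the CCAAT box bound by NF-Y.
PTTG1IP, chr21:44873691-44873940, minus strand: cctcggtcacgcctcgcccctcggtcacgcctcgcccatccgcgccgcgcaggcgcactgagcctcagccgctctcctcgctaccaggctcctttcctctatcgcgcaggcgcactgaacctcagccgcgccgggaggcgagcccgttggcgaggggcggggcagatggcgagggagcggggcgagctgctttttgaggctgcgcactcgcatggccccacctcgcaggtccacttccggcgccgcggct
NIPBL, chr5:36876519-36876768, plus strand: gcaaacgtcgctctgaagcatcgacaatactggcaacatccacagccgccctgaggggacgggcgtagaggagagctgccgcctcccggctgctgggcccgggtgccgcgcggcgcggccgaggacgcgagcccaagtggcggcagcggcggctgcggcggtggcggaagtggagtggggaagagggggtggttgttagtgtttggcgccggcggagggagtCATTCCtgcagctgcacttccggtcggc
PTTG1, chr5:160421605-160421854, plus strand: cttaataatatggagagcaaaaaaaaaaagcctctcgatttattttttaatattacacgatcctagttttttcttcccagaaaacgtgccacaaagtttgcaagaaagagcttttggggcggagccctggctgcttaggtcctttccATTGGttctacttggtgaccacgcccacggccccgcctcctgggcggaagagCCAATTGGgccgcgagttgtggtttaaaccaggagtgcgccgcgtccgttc
ESPL1, chr12:53268049-53268298, plus strand: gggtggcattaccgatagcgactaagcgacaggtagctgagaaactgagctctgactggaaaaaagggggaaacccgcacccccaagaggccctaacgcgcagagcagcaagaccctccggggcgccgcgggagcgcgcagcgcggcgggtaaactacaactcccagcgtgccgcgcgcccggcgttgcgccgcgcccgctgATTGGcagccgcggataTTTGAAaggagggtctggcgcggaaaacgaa

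Of the 10 members 9 matched the promoter table, with 13 entries, since some have several starts. TEAD motifs occurred in 2 of the 13, those of NIPBL (28 bases before the start, as the reverse complement CATTCC) and of 1 STAG2 entry, and the motif occurs in 11.9% of all 35116 promoter windows. CHR motifs occurred in 2, ESPL1 (31 bases before the start) and SMC3 (151 bases before), against 13.3% of all windows. CCAAT boxes occurred in 7, against 32% of windows: both entries of PTTG1 and entries of STAG2, ESPL1, STAG1 and PDS5A. The PTTG1 windows overlap and hold the same boxes, so entries of 1 gene are not independent. An interferon response motif, GAAA and GAAA with 2 bases of any kind between them, was in 0 of the 13 and in 3.02% of all windows. PTTG1IP had no match to any of these letters in this window.

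The neighbours of PTTG1IP were read as well. Within 250 kb the table listed 31 genes, of which 6 besides PTTG1IP averaged at least 1 FPKM. The ubiquitin-conjugating enzyme gene UBE2G2 (chromosome 21, 44768580 to 44802019) was also called lower: it had 1.68 FPKM with YAP siRNA, 3.60 with IRF3 siRNA and 4.57 in control, from 327, 726 and 860 counts. Its log2 ratio was -1.05 with YAP siRNA and -0.28 with IRF3 siRNA. With the trend in GC content, length and level removed, the UBE2G2 log2 ratios were -0.85 and -0.03, and neither reached 2-fold. Its count ratio with that trend removed was 0.424 with YAP siRNA. SUMO3, a small ubiquitin-like modifier gene that lies between them, had 21.9 FPKM with YAP siRNA, 20.8 with IRF3 siRNA and 20.1 in control, and log2 ratios of 0.12 and 0.05. The other 4 had log2 ratios with YAP siRNA of 0.05 (FAM207A), 0.16 (LINC01547), -0.31 (AP001505.10) and -0.10 (LL21NC02-1C16.1). On the whole of chromosome 21, 3 of 114 expressed genes were 2-fold lower with YAP siRNA (2.63%, beside 0.468% of all expressed genes): PTTG1IP, which was chosen by this value, UBE2G2 and SON, the last at a log2 ratio of -1.01 in each knockdown.

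**Figure D4:**
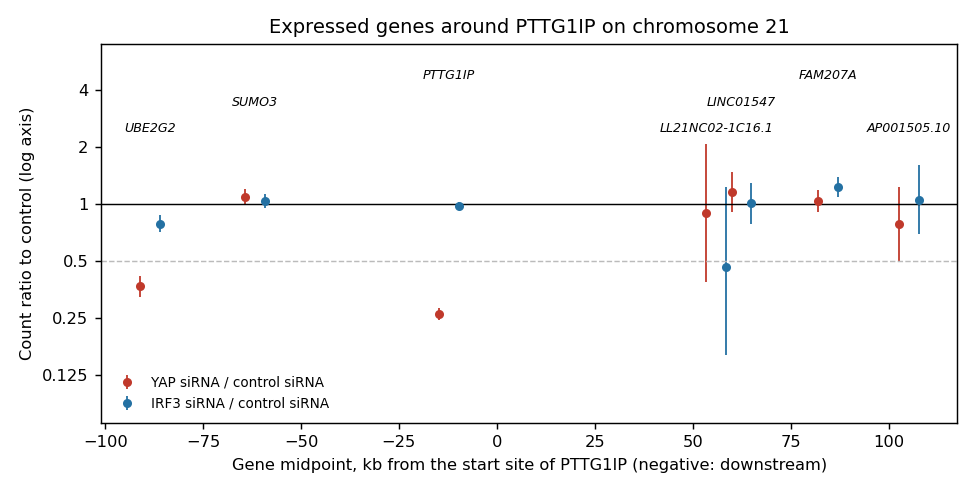
Count ratio to control (log axis, bars: 95% counting intervals) of the 7 genes averaging at least 1 FPKM within 250 kb of PTTG1IP, by the gene's midpoint in kilobases from the PTTG1IP start site. PTTG1IP at 0.263 and UBE2G2 at 0.369 lie below 0.5 with YAP siRNA, and SUMO3 between them lies near 1.

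By Euclidean distance over the 2 log2 ratios to control, the genes nearest to PTTG1IP among 5031 candidates were SLC16A1 (distance 0.51), GPR157 (0.57), SHC1 (0.83), FOXD1 (0.84) and CYB5B (0.86). SLC16A1, a lactate and pyruvate transporter gene, had 5.86 FPKM with YAP siRNA, 13.4 with IRF3 siRNA and 17.4 in control. GPR157, a G protein-coupled receptor gene, had 2.48, 6.997 and 7.25 FPKM in the same order. SHC1, which encodes an adaptor of receptor tyrosine kinases, had 12.8, 23.5 and 26.7 FPKM, and FOXD1, a forkhead transcription factor gene, had 8.44, 15.8 and 17.7. Each of the 5 was lowest in the YAP siRNA library, which their choice by these ratios nearly fixed. None was as far below control there as PTTG1IP, which ranked 4 from the lowest of 5291 genes averaging at least 5 FPKM. The likeness rests on 3 libraries.

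No expressed gene of the 4 surrounding pathway lists (7, 18, 17 and 10 genes) passed 2-fold on the log2(FPKM + 1) scale in either direction with either siRNA. Over all genes 0.468% were lower and 0.351% higher with YAP siRNA, and 0.612% and 0.387% with IRF3 siRNA. In lists of this size the absence of calls is near those shares. Among cohesin regulators and paralogues, 7 of 12 genes averaged at least 1 FPKM, and 3 of the 7 with YAP siRNA and 4 with IRF3 siRNA were below control, against 53.4% and 53.9% of all genes. WAPL, which releases cohesin from chromatin, had 1.60 FPKM with YAP siRNA, 1.61 with IRF3 siRNA and 2.81 in control, and count ratios of 0.571 and 0.574, close to those of PDS5A. CDCA5, which encodes the cohesion protector sororin, had 6.50, 11.3 and 7.39 FPKM, a log2 ratio of -0.16 with YAP siRNA and 0.56 with IRF3 siRNA. By counts the 12 genes had a median ratio of 0.856 with YAP siRNA and 0.827 with IRF3 siRNA. Outside the filter, and named after their values were seen, PDS5B had 95, 87 and 175 counts and the shugoshin gene SGOL2 had 34, 23 and 84 in the YAP siRNA, IRF3 siRNA and control libraries.

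Of the anaphase-promoting complex, which marks securin for destruction, 18 of 19 genes passed the filter, with median log2 ratios of 0.06 with YAP siRNA and 0.13 with IRF3 siRNA; 6 and 7 of them were below control. CDC27 stood at -0.56 and -0.41 and ANAPC1 at -0.47 and -0.47, whereas ANAPC2 stood at 0.24 and 0.43. The 17 genes of the spindle checkpoint and of separase control had medians of -0.03 and 0.08, with 10 and 7 below control. The checkpoint kinase-like gene BUB1B had 4.40 FPKM with YAP siRNA, 4.93 with IRF3 siRNA and 7.84 in control, and log2 ratios of -0.71 and -0.58. The kinase gene TTK had -0.52 and -0.54. CDC20, the activator that brings securin to the complex, had 169 FPKM with YAP siRNA, 194 with IRF3 siRNA and 165 in control, and CCNB1, the mitotic cyclin gene, had 74.8, 81.2 and 76.5.

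The related condensin and SMC5/6 complexes had 10 of 15 genes past the filter, with median log2 ratios of -0.12 with YAP siRNA and -0.16 with IRF3 siRNA and 6 of 10 below control in each. NCAPG2 had -0.45 and -0.39, NCAPH2 had 0.10 and 0.40, and NSMCE2 had 0.35 and 0.10. Of 4 meiotic cohesin genes 0 passed the filter, and STAG3 was the most counted, with 181 counts with YAP siRNA, 192 with IRF3 siRNA and 112 in control. Over all 11103 genes the median log2 ratio was -0.02 with YAP siRNA and -0.03 with IRF3 siRNA. The plot of lists shows the cohesin members lower in the median than each of the other lists plotted, in both comparisons. These medians keep the trend in GC content, length and level. With it removed the cohesin medians were 0.743 with YAP siRNA and 0.765 with IRF3 siRNA. Those of the condensin and SMC5/6 list were then 0.867 and 0.897, and those of the cohesin regulators 0.864 and 0.993. Members and lists were chosen with earlier results known.

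**Figure D5:**
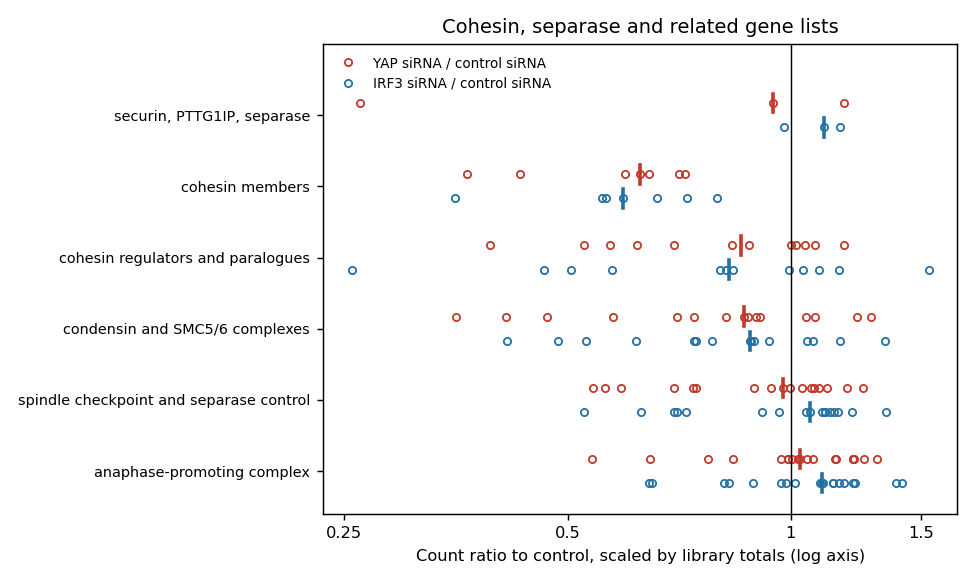
Count ratio to control (log axis) of genes with at least 20 counts over the 3 libraries, by list; circles are genes and short bars list medians. The trend in GC content, length and level is not removed. The cohesin members have medians of 0.626 with YAP siRNA and 0.594 with IRF3 siRNA, against 0.856 and 0.827 for cohesin regulators and paralogues and 1.03 and 1.10 for the anaphase-promoting complex.

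Counting could mix genes at 4 of the 10 members, whose exons overlap those of a gene on the other strand. Not given in the sources used here is whether counting used strand. STAG1, with 69, 62 and 104 counts in the YAP siRNA, IRF3 siRNA and control libraries, overlaps PCCB, with 1727, 1999 and 1659. RAD21 overlaps UTP23, with 689, 698 and 622 counts, SMC1A overlaps RIBC1, with 52, 66 and 41, and STAG2 overlaps TENM1, with 38, 27 and 88. PTTG1, PTTG1IP, ESPL1, SMC3, NIPBL and PDS5A overlap no annotated exon of another gene.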

How the data were processed

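RNA from 3 HGC-27 cultures (YAP siRNA, IRF3 siRNA, control siRNA) was sequenced, 1 library each, grouped by the labels. The deposited table gives an FPKM value and a raw count per gene and library, per the file headers. Reads were aligned with TopHat2 2.0.9 to hg38, per the submitters' processing notes; what counter, strand setting and annotation were used was not given in the sources used here. Of 45223 nonzero FPKM values, 100% were within 1% of those computed from the deposited counts, column totals and 1 length per gene.

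Members and lists were chosen with earlier results of these data known. Log2 ratios used FPKM plus 1, genes with a mean of at least 1 FPKM over the 3 libraries, and a call at 2-fold. From each list the 4 genes with the largest ratios were eligible to be named, as were the expressed genes within 250 kb of PTTG1IP and the 5 genes of at least 5 FPKM nearest to it in Euclidean distance over the log2 ratios to control. Small RNAs and clone-based symbols were left out of the search for near genes. CDC20, CCNB1, STAG3 and SON lie outside this rule and were named after their values were seen. Count ratios were scaled by column totals and carry the 95% exact (Clopper-Pearson) interval of the shared count. It covers counting error only and no spread between cultures. PCR copies are not independent molecules, so it may be too narrow even for that. The bars on FPKM are the 95% exact Poisson interval of the count in 1 library. Exon lengths, GC content and overlaps came from GENCODE release 29, in which 50111 genes matched, and promoters from RefSeq. The trend removed, in GC content, length and level, was an additive spline with 4 degrees of freedom each. The alternatives were another pseudocount, other filters, centring, TMM-scaled CPM, a 3-fold threshold, trend removal and summing of overlapping genes, with count ratios added after seeing the data. Tools were edgeR 4.0.16 in R 4.3.3 for TMM factors, and pandas 2.3.3, numpy 2.4.6, scipy 1.17.1 and patsy 1.0.2 in Python 3.11.15.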

Additional observations from a re-analysis of the deposited data

How the results depend on the processing

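With 1 library per group no value has a replicate error, and leaving out a library leaves no comparison. No paired analysis was possible because each group has 1 library. Over 10 settings each, the PTTG1IP log2 ratio lay between -2.13 (count ratio with trend removed) and -1.80 for YAP siRNA against control and between -1.90 and -1.78 for YAP siRNA against IRF3 siRNA. Other filters and the summing of overlapping genes could not move it, as PTTG1IP overlaps no other gene. PTTG1IP was also chosen by its low value with YAP siRNA, so these ranges support nothing. For IRF3 siRNA against control it was -0.03, and moved to 0.071 on TMM-scaled CPM, -0.13 once the trend in GC content, length and level was removed and -0.25 for the count ratio with that trend removed. Members with a count ratio to control of at most 0.5 numbered 3 of 10 with YAP siRNA and 1 of 10 with IRF3 siRNA. These are ratios without a pseudocount, and 7.45% and 8.26% of genes lay there. Once the trend was removed from that ratio, 1 member (PTTG1IP) and 0 did. The counts over all genes at both settings are given next.

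Genes lower and higher, 52 and 39 for YAP siRNA against control, became 240 and 106 with a pseudocount of 0.1, 18 and 18 with a filter of 5 FPKM, 8 and 9 at 3-fold, 29 and 22 with overlapping genes summed, 1243 and 356 by count ratio, and 647 and 413 by count ratio with the trend removed. Genes lower became 79 with no filter and 134 on TMM-scaled CPM, which changes unit and scaling together. For IRF3 siRNA against control, 68 and 43 became, under those 6 settings in that order, 284 and 96, 30 and 11, 12 and 13, 44 and 19, 1378 and 360, and 674 and 398. Genes lower there became 155 on TMM-scaled CPM and 42 with the trend removed. For YAP siRNA against IRF3 siRNA, 33 and 35 became 84 and 79, 12 and 15, 17 and 14, 9 and 18, 405 and 487, and 379 and 417. The cause of these shifts was not tested beyond what each setting changes by construction. SMC3, STAG1 and NIPBL rest on at most 54, 104 and 233 counts in a library, which limits their ratios.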

Other observations

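CDCA5, the sororin gene, lay lower with YAP siRNA than with IRF3 siRNA, at a log2 ratio of -0.72, which did not pass 2-fold. ADARB1, an RNA-editing enzyme gene within 250 kb of PTTG1IP and below the filter, had a count ratio to control of 0.399 (0.322 to 0.492) with YAP siRNA and 0.604 with IRF3 siRNA. ADARB1 was named after its values were seen.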
